A study of Rattus norvegicus with 24 samples.

Results

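C1q is the recognition molecule of the classical complement pathway, and its A, B and C chains are encoded by C1qa, C1qb and C1qc. These genes were followed across injury and age in rat spinal dorsal horn. They were chosen by name, with earlier results of these data known. Every probe set whose single annotated gene symbol was C1qa, C1qb or C1qc was taken. This gave 1 probe set for each chain, 3 of the 10411 genes with such a probe set. All 3 passed the filter on low values, and 72 of their 72 values lay above its level of 3.84 log2, with 5.11 the lowest.

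RNA came from the dorsal horn ipsilateral to sciatic nerve surgery in Sprague-Dawley rats. In spared nerve injury (SNI) the common peroneal and tibial nerves were ligated and transected and the sural nerve was spared; in the sham operation the nerve was exposed without being tied. The 4 groups were adult sham, adult SNI, neonate sham and neonate SNI, each with 6 Affymetrix Rat Expression 230A arrays from biologically independent samples. Adults were 8 to 12 weeks old and neonates are labelled postnatal day 10, without saying whether that was the day of surgery or of tissue collection. The series title places the measurement 7 days after injury, and pups were returned to their mothers after surgery. The array labels give 7 days for the SNI groups only. They do not say whether sham tissue was also taken 7 days after surgery, so a difference in time between SNI and sham cannot be told apart from injury. The labels do not say whether animals were pooled for an array, and no group carries a transgene or drug.

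The chains assemble with each other into a bouquet of collagen-like stalks with globular heads that bind antibody, pentraxins, dying cells and other surfaces. Bound C1q activates the proteases C1r and C1s, which cleave C4 and C2 and so lead to cleavage of C3, the step on which all complement pathways converge. Unlike most complement proteins, which the liver makes, C1q is made mainly by cells of the macrophage lineage, and in the central nervous system by microglia. There it is known for tagging synapses that microglia remove during development. The study's title sets the response of adult and neonatal dorsal horn to SNI side by side, and the values below describe the C1q chains within that comparison.

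In the gene table of the rat genome assembly GRCr8 the genes lie next to each other on one chromosome in the order C1qb, C1qc, C1qa, with no annotated gene between them. Because the chains moved together in these data, the 250 bases before the annotated start were read for the chains present in the RefSeq promoter table of GRCr8, which were 2 of the 3 (C1qa and C1qb). Both are on the minus strand of chromosome 5, at chr5:154419934-154420183 for C1qa and chr5:154407828-154408077 for C1qb. They are shown 5′ to 3′ so that the DNA upstream of chains that moved together can be compared, with the single motif match in capitals.
C1qa: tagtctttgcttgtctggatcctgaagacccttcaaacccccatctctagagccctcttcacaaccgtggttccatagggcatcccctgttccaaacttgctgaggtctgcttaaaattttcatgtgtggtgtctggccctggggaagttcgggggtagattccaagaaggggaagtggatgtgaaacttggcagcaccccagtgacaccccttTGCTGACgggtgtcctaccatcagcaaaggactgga
C1qb: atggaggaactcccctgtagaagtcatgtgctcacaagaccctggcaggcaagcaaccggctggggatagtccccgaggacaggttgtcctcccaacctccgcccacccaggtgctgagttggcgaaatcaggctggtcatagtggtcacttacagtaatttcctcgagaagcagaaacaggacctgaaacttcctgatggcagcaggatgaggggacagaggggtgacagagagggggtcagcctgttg
The sequences held 52.4% and 56.8% G or C for C1qa and C1qb. Short motifs of factors known from macrophage genes were searched on both strands: GAGGAAG for PU.1, GAAA and GAAA with any 2 bases between for the interferon response, GGAA and GAAA with any 2 bases between for a composite of ETS and IRF sites, TGCTGAC for the MAF core, and TATAAA for the TATA box. The capitals in C1qa mark the TGCTGAC of the MAF core, 36 to 30 bases before the start. The letters of the other motifs were not in the C1qa window, and none of the searched letters were in the C1qb window. Over the 33469 promoters of the same length, 3.53% held TGCTGAC, 10.2% GAGGAAG, 3.41% the interferon response motif, 2.48% the composite motif and 12.9% TATAAA. A match describes letters in a window and was not tested as a site.

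Values are log2 expression per probe set, so a difference of 1 is a 2-fold change. The median of an array ran from 5.56 to 5.66, and the lowest correlation between any pair of arrays was 0.984. Cell markers were read beside the tissue label: all 7 measured neuronal, 5 oligodendrocyte and 8 astrocyte genes were above the filter level. All 8 measured T cell genes were at or below it on every array. These markers do not tell the dorsal horn from other neural tissue, nor its side. The 1 measured Schwann cell gene, Prx, ran from 8.38 to 10.92 on adult sham, 9.11 to 9.91 on adult SNI, 7.23 to 10.83 on neonate sham and 9.42 to 10.65 on neonate SNI arrays. The mean over the 16 measured genes of the microglia and macrophage list was 5.19 to 5.39 on adult sham arrays, 6.68 to 7.04 on adult SNI arrays, 4.91 to 5.15 on neonate sham arrays and 5.40 to 5.80 on neonate SNI arrays. The list moved with injury in the same direction as the C1q chains, and its part in their change is taken up below. In bulk tissue, fewer cells of a type and less RNA per cell cannot be told apart. Precision is limited by having 6 arrays a group.

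All 3 C1q chains rose strongly after SNI in adults. C1qa, the A chain, ran from 8.68 to 9.83 on adult sham arrays (median 9.43) and from 11.59 to 12.46 on adult SNI arrays (median 12.01). Every SNI array was above every sham array, with a gap of 1.77 between the lowest SNI and the highest sham value. The mean moved from 9.37 ± 0.38 to 12.03 ± 0.30 (SD, n = 6 each), a difference of 2.66 (SE 0.22, 95% confidence interval 2.21 to 3.10) or 6.31-fold, with an adjusted p of 4.83e-09 in limma's moderated test with Benjamini-Hochberg adjustment over 9638 probe sets.

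C1qb, the B chain, ran from 5.48 to 7.08 in adult sham (median 6.44) and from 8.87 to 10.04 in adult SNI (median 9.67). The groups were again fully separate, by 1.78, although the lowest arrays of both groups carried the number 3. Its means were 6.44 ± 0.57 and 9.60 ± 0.44 (SD, n = 6 each), a difference of 3.16 (SE 0.30, interval 2.53 to 3.78) or 8.91-fold (limma adjusted p = 8.31e-08).

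C1qc, the C chain, ran from 5.57 to 6.98 in adult sham (median 6.61) and from 9.74 to 10.49 in adult SNI (median 10.26). It had the widest gap between the groups of the 3 chains, 2.75. Its means were 6.50 ± 0.54 and 10.15 ± 0.31 (SD, n = 6 each), a difference of 3.64 (SE 0.28, interval 3.07 to 4.22) or 12.5-fold (limma adjusted p = 1.61e-09). Among the 9638 probe sets, ordered by the size of the increase, C1qc was number 3, C1qb number 7 and C1qa number 11. Thus 3 of 3 chains rose, where 1.95% of all probe sets rose and the median change over all of them was -0.03. Complete separation with SNI above sham held for 3 of 3 chains and for 1.7% of all probe sets.

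**Figure D1:**
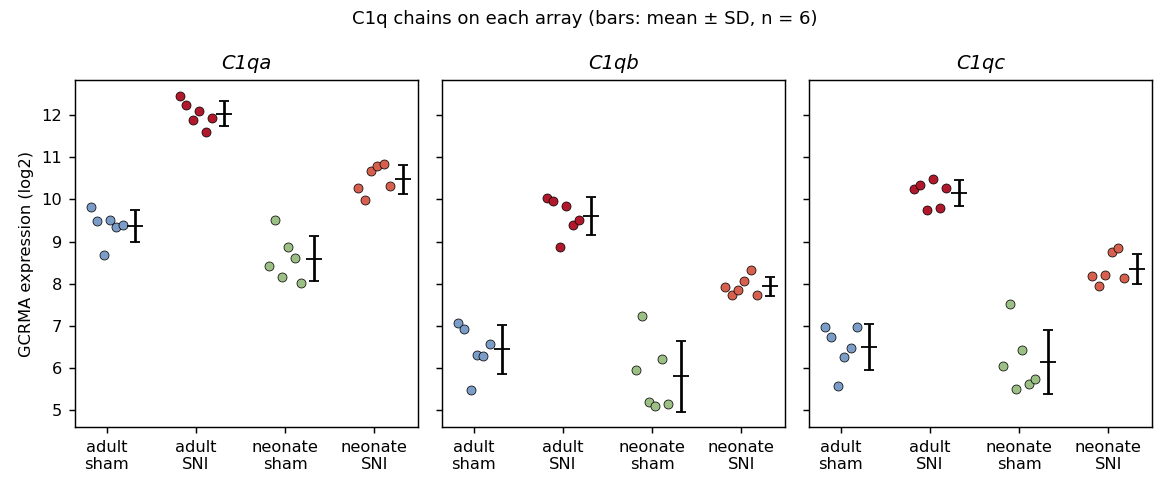
Log2 expression of C1qa, C1qb and C1qc on each of the 24 arrays by group, with points for arrays and bars for the mean ± SD (n = 6). For every chain the adult SNI arrays lie above all adult sham arrays and the neonate SNI arrays above all neonate sham arrays; neonate sham array 2 is the highest of its group in each panel.

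All 3 chains also rose after SNI in neonates. C1qa ran from 8.03 to 9.50 on neonate sham arrays (median 8.51) and from 9.98 to 10.85 on neonate SNI arrays (median 10.50). The groups did not overlap, but the gap was 0.48, because sham array 2 lay well above the other sham arrays. Its means were 8.60 ± 0.54 and 10.48 ± 0.34 (SD, n = 6 each), a difference of 1.88 (SE 0.22, interval 1.43 to 2.33) or 3.68-fold (limma adjusted p = 2.90e-05).

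C1qb ran from 5.11 to 7.23 in neonate sham (median 5.58) and from 7.73 to 8.32 in neonate SNI (median 7.89). The sham arrays were widely spread and the SNI arrays close together, with a gap of 0.50 above sham array 2. Its means were 5.81 ± 0.83 and 7.94 ± 0.22 (SD, n = 6 each), a difference of 2.13 (SE 0.30, interval 1.51 to 2.75) or 4.38-fold (limma adjusted p = 3.14e-04).

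C1qc ran from 5.50 to 7.52 in neonate sham (median 5.91) and from 7.96 to 8.84 in neonate SNI (median 8.20). Sham array 2 was again the highest of its group, 0.44 below the lowest SNI array. Its means were 6.15 ± 0.75 and 8.35 ± 0.36 (SD, n = 6 each), a difference of 2.20 (SE 0.28, interval 1.63 to 2.77) or 4.60-fold (limma adjusted p = 9.53e-05). Without sham array 2 the neonatal differences were at their largest, 2.06 for C1qa, 2.42 for C1qb and 2.47 for C1qc.

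By size of increase in neonates, C1qc was number 4, C1qb number 5 and C1qa number 8 of 9638 probe sets. The test called 3 of 3 chains, against 0.311% of all probe sets, and the groups were fully separate for 3 of 3 chains against 0.436%. The 3 chains were also among the 27 probe sets (0.28%) that rose at both ages. The median change over all probe sets was -0.01.

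The increases in neonates came to 70.8%, 67.6% and 60.4% of the adult increases on the log2 scale for C1qa, C1qb and C1qc. The adult increase exceeded the neonatal one by 0.78 for C1qa (SE 0.31, interval 0.14 to 1.41), by 1.02 for C1qb (SE 0.43, interval 0.14 to 1.90) and by 1.44 for C1qc (SE 0.39, interval 0.63 to 2.25). Each interval lies above 0, and the unadjusted limma p-values were 0.0181, 0.0246 and 0.00120. After Benjamini-Hochberg adjustment over all probe sets none of the 3 passed (limma adjusted p = 1.00, 1.00 and 0.269), where 0.228% of all probe sets were higher in adults by this test and 238 of 9638 had an unadjusted p under 0.05. The age difference in the response of the chains is therefore not called here, and the intervals do not show that the ages responded alike.

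**Figure D2:**
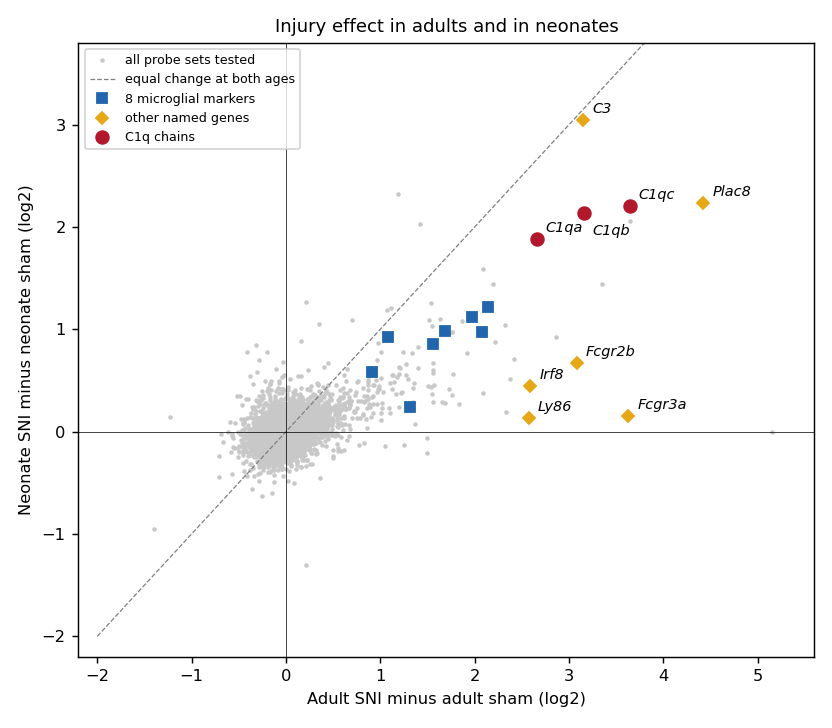
Difference between SNI and sham in log2 units in adults (horizontal axis) and in neonates (vertical axis) for each tested probe set, with the C1q chains as circles, 8 microglial markers as squares and other named genes as diamonds; the dashed line marks equal change. The chains lie below the line, with adult values of 2.66 to 3.64 and neonatal values of 1.88 to 2.20. C3 lies close to the line, with a neonate sham mean next to the filter level. Fcgr3a (0.15) and Ly86 (0.13) lie near 0 on the neonatal axis, both below the filter level in both neonate groups.

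Sham-operated adults and neonates overlapped for every chain, so 0 of 3 were fully separate where 4.31% of all probe sets had every adult above every neonate array. C1qa was 0.77 higher in adult than in neonate sham (SE 0.22, interval 0.33 to 1.22, or 1.71-fold), with a limma adjusted p of 0.0149. C1qb differed by 0.64 (interval 0.01 to 1.26, adjusted p = 0.164) and C1qc by 0.35 (interval -0.22 to 0.93, adjusted p = 0.437), neither past the threshold of 0.05. The call for C1qb turned on 1 array: without neonate sham array 2 it was 0.92 higher in adults, with an adjusted p of 0.0169. Thus 1 of 3 chains was higher in adult sham tissue, where 7.51% of all probe sets were.

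After SNI the ages separated. C1qa was higher in adults than in neonates by 1.55 (interval 1.10 to 2.00, 2.93-fold, limma adjusted p = 1.04e-05), C1qb by 1.66 (interval 1.04 to 2.28, 3.16-fold, adjusted p = 2.66e-04) and C1qc by 1.80 (interval 1.22 to 2.37, 3.47-fold, adjusted p = 3.85e-05). Every adult SNI array was above every neonate SNI array for 3 of 3 chains, which held for 4.73% of all probe sets, and the test called 3 of 3 against 9.32%. For each chain the order of the group means was neonate sham, adult sham, neonate SNI, adult SNI. The neighbours neonate sham and adult sham were not distinguished for C1qb and C1qc.

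The probe sets of the chains did not rise by equal amounts in adults. Within each array the difference between 2 chains was taken and SNI arrays were compared with sham arrays by a two-sided exact permutation test, for which 6 against 6 arrays allow no p below 0.002165. C1qc rose more than C1qa by 0.99 (exact p = 0.002165, adjusted over 6 comparisons 0.0130), with all 6 SNI arrays above all sham arrays. C1qb rose more than C1qa by 0.50 (exact p = 0.0195, adjusted 0.0390; 5 of 6 SNI arrays above all sham arrays) and C1qc more than C1qb by 0.49 (exact p = 0.0108, adjusted 0.0325; 3 of 6 arrays). The difference between C1qb and C1qa missed the threshold without 9 of the 12 arrays in turn, with adjusted p up to 0.0736, and that between C1qc and C1qb without 4 of the 12, at 0.0520. These were adult sham arrays 3 to 6 and SNI arrays 1, 2, 4, 5 and 6 for C1qb against C1qa, and sham arrays 3 and 4 and SNI arrays 4 and 6 for C1qc against C1qb. Paired by replicate number, 6 pairs allow no p below 0.03125 in a test by sign flips. All 3 adult comparisons had this smallest p, and an adjusted p of 0.0625. With the neonatal comparisons above that smallest p, the adjustment could give no lower value, so this test could not call them.

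In neonates no pair of chains passed the test. C1qc exceeded C1qa by 0.32 (exact p = 0.0649, adjusted 0.0974), C1qb exceeded C1qa by 0.25 (exact p = 0.362, adjusted 0.434) and C1qc exceeded C1qb by 0.07 (exact p = 0.764, adjusted 0.764). The first passed the test when 1 of 2 arrays was left out, at 0.41 without neonate sham array 2 (adjusted p = 0.0292) and at 0.38 without neonate SNI array 3 (adjusted p = 0.0487). Different probe sets can respond to the same change in RNA by different amounts, which was not tested, so unequal increases of probe sets and of RNA cannot be told apart.

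From array to array within a group the chains varied together. Over the 24 deviations from group means, C1qa and C1qc correlated most (Pearson r = 0.857, Spearman rho = 0.791), followed by C1qb and C1qc (r = 0.777, rho = 0.663) and C1qa and C1qb (r = 0.773, rho = 0.697). Permuting arrays within groups 100000 times gave permutation p-values of 3e-05, 7.3e-04 and 3.8e-04 for r and of 5e-05, 0.0016 and 6.5e-04 for rho, which adjusted over the 3 pairs were 9e-05, 7.3e-04 and 5.7e-04 for r and 1.5e-04, 0.0016 and 9.75e-04 for rho. Without the 2 arrays farthest from the median, r was 0.745, 0.565 and 0.602. Those arrays were neonate sham array 2, which lay 0.91, 1.42 and 1.37 above its group mean for C1qa, C1qb and C1qc, and adult sham array 3, which lay below its group mean by 0.69, 0.96 and 0.93. The chains of an array share its RNA and its normalization. Over the 7003 genes ranked for likeness below, the highest correlation with the mean deviation of the chains was 0.786, for C3. The permutations treated the arrays of a group as independent and did not use replicate numbers. Same-numbered sham and SNI arrays of an age deviated together, which could make these p-values too small.

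**Figure D3:**
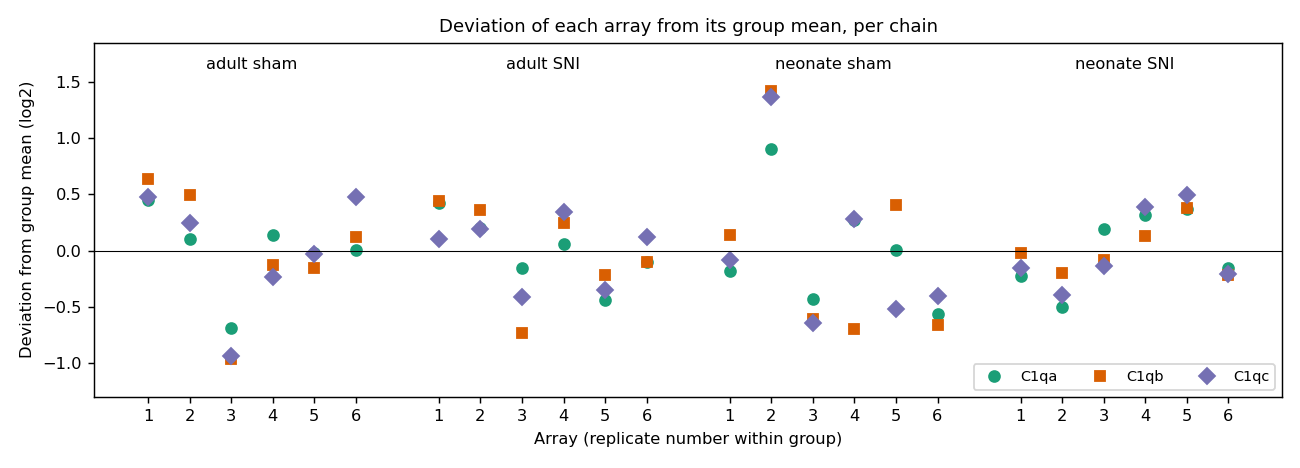
Deviation of each of the 24 arrays from its group mean in log2 units (vertical axis), by group and replicate number (horizontal axis), with a circle for C1qa, a square for C1qb and a diamond for C1qc. All 3 chains are lowest on adult sham array 3 and highest on neonate sham array 2. They lie on different sides of the group mean on neonate sham arrays 1, 4 and 5. The same holds for adult sham array 4, adult SNI array 6 and neonate SNI array 3.

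The chains rose by more than the mean of 8 genes that mark microglia and macrophages. Of the 12 genes of that list that passed the filter, 11 rose in adults and 7 in neonates, with medians of 1.65 and 0.89, where 1.95% and 0.311% of all probe sets rose. Some passed only or mainly through adult SNI: Ly86, Ptprc and Cx3cr1 were above the level on 6 adult SNI arrays and on 0 to 2 arrays of each other group. The adult call for Cx3cr1 (1.63, limma adjusted p = 0.0157) was lost with low values set to the filter level (0.91, adjusted p = 0.104). It was also lost without adult sham array 2, adult SNI array 5 or adult SNI array 6 (limma adjusted p 0.0503 to 0.0572). The neonatal call for P2ry12 (0.93, limma adjusted p = 0.0481) was lost without 9 of 12 arrays in turn, neonate sham arrays 1, 2, 4, 5 and 6 and neonate SNI arrays 3 to 6 (adjusted p up to 0.166). Of the 12 genes, 8 were above the filter level on all 24 arrays: Aif1, Csf1r, Cd53, Laptm5, Ctss, Mpeg1, P2ry12 and Cyba. Their mean was 7.74 ± 0.12 in adult sham, 9.33 ± 0.17 in adult SNI, 7.35 ± 0.16 in neonate sham and 8.21 ± 0.20 in neonate SNI (SD, n = 6 each), so it was 1.59 higher after SNI in adults and 0.86 higher in neonates. Single markers of the 8 differed by 0.91 (Ctss, a lysosomal protease) to 2.14 (Aif1, the microglial protein Iba1) in adults. In neonates they differed by 0.24 (Cyba) to 1.22 (Aif1), and all 8 were below all 3 chains at both ages. The level requirement kept dimmer list genes out of the 8. Of these, Cd68 was 2.84 higher in adult SNI than in adult sham, above C1qa (2.66) and below C1qb and C1qc. It was above the level on 5 adult SNI arrays only and was not tested. Ly86 (2.57) and Cx3cr1 (1.63) were below all 3 chains in adults.

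Within arrays, a chain minus this marker mean was compared between SNI and sham by a two-sided exact permutation test, added after the values had been seen. In adults the excess was 1.07 for C1qa, 1.56 for C1qb and 2.05 for C1qc (each exact p = 0.002165, the smallest possible, and 0.00325 adjusted over 6 comparisons), and all 6 SNI arrays were above all sham arrays for each chain. In neonates it was 1.02 for C1qa (exact p = 0.002165, adjusted 0.00325; 6 of 6 arrays), 1.27 for C1qb (exact p = 0.006494, adjusted 0.00649; 4 of 6) and 1.34 for C1qc (exact p = 0.004329, adjusted 0.00519; 5 of 6). The excess of C1qa was thus near 1 at both ages, and that of C1qc was 2.05 in adults against 1.34 in neonates, a difference between ages that was not tested. On the array with the highest chains of its group, neonate sham 2, the marker mean was also the highest of its group, 7.59, and on adult sham array 3 it was the lowest, 7.53. The size of the excess depends on which markers are averaged. The markers have their own probe sets, so the caution on unequal probe response applies here too. The share of the increase that came with more cells was not tested.

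**Figure D4:**
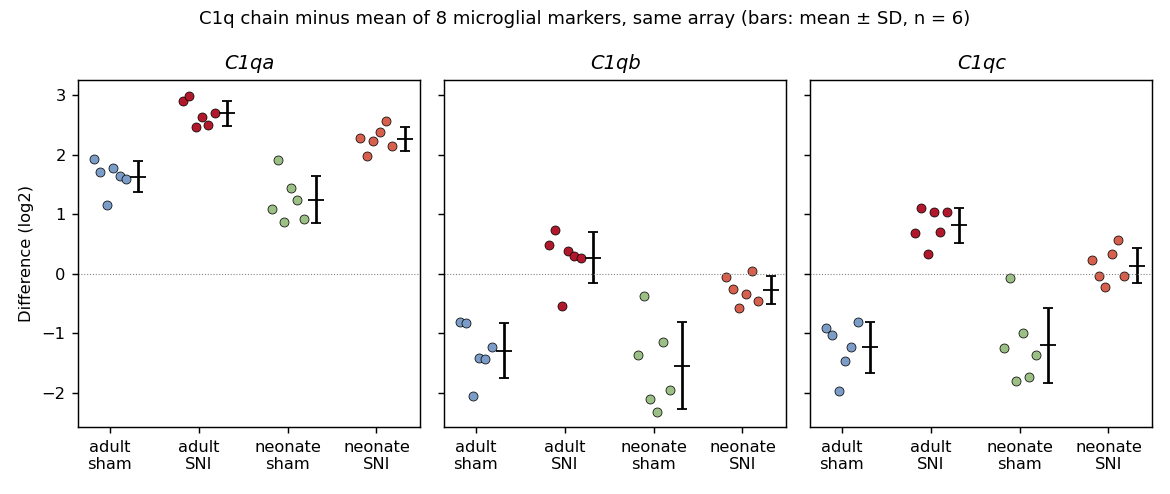
Log2 value of each C1q chain minus the mean of 8 microglial markers on the same array, by group, with points for arrays and bars for the mean ± SD (n = 6). In adults the SNI arrays lie above all sham arrays for each chain; in neonates this holds for C1qa, while neonate sham array 2 reaches into the SNI range for C1qb and C1qc.

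Markers of other immune cells were mostly near or below the filter level, with exceptions. The 8 measured T cell genes averaged between 2.19 and 2.30 on every array, and of the 5 measured monocyte and neutrophil genes Ccr2, S100a8, Lcn2 and Fcnb were at or below the filter level on all arrays. The fifth, S100a9, averaged 4.73 in adult sham, 4.16 in adult SNI, 3.73 in neonate sham and 3.70 in neonate SNI, and was called in no comparison (limma adjusted p = 0.897 and 0.160 for adult injury and age in sham). Of the 3 measured border and perivascular macrophage genes, F13a1 and Lyve1 were at or below the level on all arrays. The third, Pf4, which platelets also carry, averaged 6.36 ± 1.71 in adult sham, 5.13 ± 0.85 in adult SNI, 3.84 ± 0.27 in neonate sham and 3.98 ± 0.26 in neonate SNI (SD, n = 6 each). After injury Pf4 differed by -1.23 in adults (adjusted p = 0.472) and 0.15 in neonates (adjusted p = 1.00), and it was 2.52 higher in adult than in neonate sham (limma adjusted p = 0.00123). Of the 3 measured dendritic cell genes Itgae passed the filter, and it differed by -0.34 in adults (adjusted p = 0.612) and -0.04 in neonates (adjusted p = 1.00). Of the tested neuronal (7), oligodendrocyte (5), astrocyte (8) and endothelial (4) genes, 0 were called in either injury comparison. The astrocyte gene Gfap was nearest to a call in adults among those described, 0.34 higher after SNI (limma adjusted p = 0.0648). Its adult groups did not overlap, as held for 1.7% of all probe sets. In neonates Gfap was 0.31 higher (limma adjusted p = 0.482). Its adult difference was called under several alternatives given below. Red blood cell genes did not pass in either injury comparison, but both measured ones were higher in adult than in neonate sham, with list means of 10.74 to 12.44 against 7.76 to 8.63. Both were also higher in adults after SNI, with list means of 10.62 to 11.59 against 7.63 to 10.63. These differences accompany the higher C1qa in adult sham and, for the red blood cell genes, the higher levels of all 3 chains in adults after SNI, as Pf4 accompanies the former. Their part in the chains' values was not tested.

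Along the pathway, the C1q chains and C3 rose, while the other components that passed the filter did not pass the test and many were too dim to be tested. C3, the central component cleaved by all pathways, ran from 6.47 to 8.57 in adult sham (median 8.28) and from 10.43 to 11.51 in adult SNI (median 11.25). In neonate sham it ran from 3.25 to 4.63 (median 3.84), with 3 of 6 arrays above the filter level, and in neonate SNI from 6.31 to 7.58 (median 6.83). SNI arrays were above all sham arrays at both ages, and the adult sham and neonate SNI arrays overlapped. C3 rose by 3.15 in adults (SE 0.31, limma adjusted p = 1.41e-07) and by 3.04 in neonates (SE 0.31, adjusted p = 7.91e-06), 96.5% of the adult value. The adult increase exceeded the neonatal one by 0.11 (SE 0.44, limma adjusted p = 1.00). Between ages in sham tissue C3 differed by 4.17 (limma adjusted p = 1.29e-09), and the chains by 0.35 to 0.77. The neonate sham mean of C3 was 3.85, next to the filter level of 3.84. The sizes of its neonatal increase, of the 96.5% share and of its age difference in sham are therefore uncertain.

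Of the proteases that C1q activates, C1s was 0.44 higher after SNI in adults (SE 0.14, limma adjusted p = 0.173) and 0.46 higher in neonates (adjusted p = 0.599). C1r averaged 2.70 to 2.96 in the groups and was below the filter level on all arrays. Serping1, the C1 inhibitor that removes C1r and C1s from C1q, was 0.41 higher in adults (adjusted p = 0.648) and 0.63 higher in neonates (adjusted p = 0.606). The neonatal Serping1 groups did not overlap, but the test over all probe sets did not call it. C2, C4a and C4b are not analysed here, as no probe set carried their symbol alone.

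The remaining complement lists held no call after injury. Of 8 lectin pathway genes 6 were measured and 1, Masp1, passed the filter. Of the 12 inhibitors 10 were measured, and the 5 that passed had medians of 0.16 in adults and 0.04 in neonates. Proposed receptors and binding partners of C1q had 7 of 10 measured genes above the filter, among them the cell-surface proteins Lrp1 and Prnp and the chaperone calreticulin (Calr), and 0 of 7 were called, with medians of 0.03 and 0.07. The complement receptors C3ar1, C5ar1 and Itgam, a chain of the receptor by which microglia bind C3 fragments, were at or below the filter level on all arrays, as were both measured genes of the terminal pathway. In all, 16 tested genes of these lists beside the chains gave 1 call in adults and 1 in neonates, both C3. Of the 16, 7 were proposed receptors and binding partners of C1q rather than complement components or inhibitors. Other proteins with a C1q domain, such as cerebellins and C1q/TNF-related proteins, had 4 of 14 measured genes above the filter and 0 calls, with medians of -0.12 and -0.05.

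**Figure D5:**
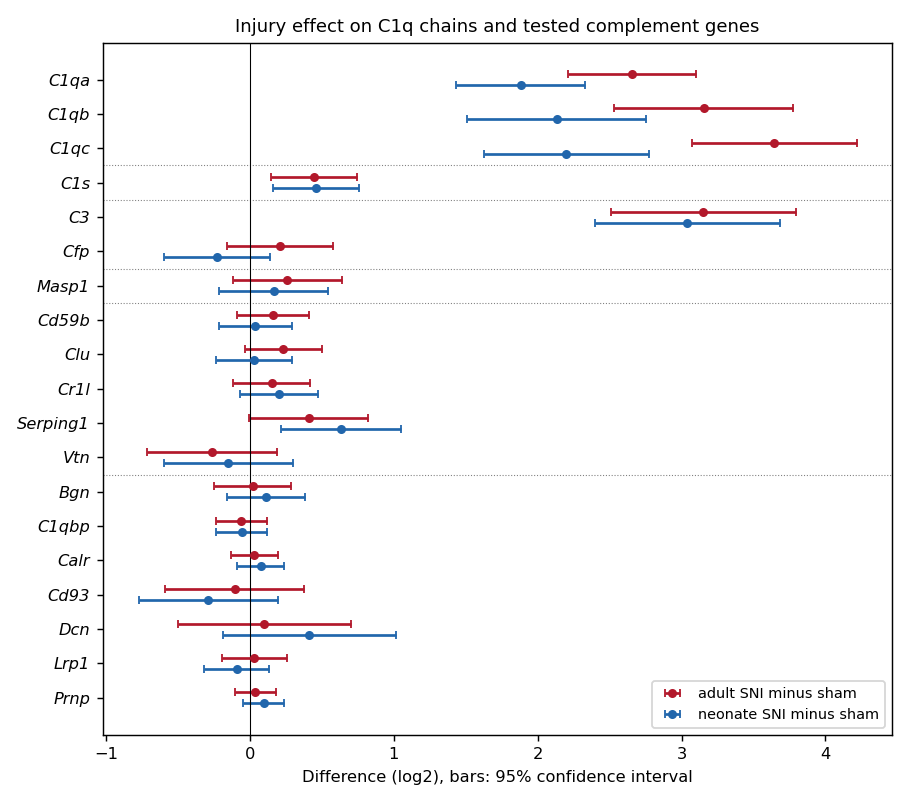
Difference between SNI and sham in log2 units with its 95% confidence interval, in adults and in neonates, by role. Shown are the C1q chains and the 16 other tested genes of the complement and C1q binding partner lists. The chains and C3 lie between 1.88 and 3.64 at both ages, and every other gene lies below 1.

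Genes of the engulfment of tagged material gave 7 calls in adults and 2 in neonates among 9 tested genes. Their medians were 0.84 and 0.23, where 1.95% and 0.311% of all probe sets rose. The list includes receptors for antibody, so its calls do not stand for a step after C1q binding. The test of the difference between ages called 2 of the 9, Fcgr3a and Fcgr2b, both of which passed the filter only through adult SNI. Both are also among the 7 adult calls. The adult count and median thus include genes that were tested only because they were high in adult SNI. Both genes called in neonates encode adaptors that pass on signals of Fc and other activating receptors. Fcer1g rose by 1.86 in adults (limma adjusted p = 3.16e-07) and 1.08 in neonates (adjusted p = 0.00472), and Tyrobp by 1.55 in adults (adjusted p = 3.16e-07). In neonates Tyrobp was below the filter level on all 6 sham arrays and rose at least 1.32-fold over that level (adjusted p = 8.72e-04), a call lost when low values were set to the level (difference 0.41, adjusted p = 0.456). Fcgr3a, an activating receptor for antibody, was below the filter level in all other groups and rose in adult SNI at least 4.35-fold over that level (limma adjusted p = 3.55e-15). Both neonate groups were below the level, so a neonatal change under it could not be seen. The C1q chains, by contrast, were above that level on every array of all 4 groups. Of the factors known to act in macrophage genes, Irf8 rose in adults at least 3.40-fold over the filter level (limma adjusted p = 3.73e-11). It was below that level on all arrays of the other groups, so it was tested only because it was high in adult SNI. Mef2c rose by 0.63 in adults (limma adjusted p = 3.97e-05). Neither was called in neonates, where a change of Irf8 under the level could not be seen.

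Likeness to the chains was measured as the Pearson correlation with the mean centred profile of the 3 chains, over 7003 genes. Over the 24 arrays, which include the group differences, the highest were Tmem176a (0.970), Csf1r (0.963), Rnaset2 (0.960), Plac8 (0.957), Aif1 (0.955), Ifi30 (0.955), Tmem176b (0.946) and Ctsh (0.944). Csf1r, the receptor for colony stimulating factor and a defining gene of microglia, rose by 1.68 in adults (limma adjusted p = 2.84e-08) and 0.99 in neonates (adjusted p = 7.99e-04). Its neonatal increase was 58.8% of the adult one, and whether that share differs from those of the chains was not tested. Over deviations from group means alone the order changed, with C3 (0.786), Ctsz (0.775), Tmem176a (0.771), Rpl23 (0.761) and Msrb2 (0.745) highest, and a ranking by Spearman's rho shared 0 of these 5. The correlations are descriptions over arrays that share normalization.

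Of the neighbours described here, Kdm1a and Luzp1 were tested and neither was called after injury. Of the 3 annotated genes on each side 1 was measured, the ephrin receptor gene Epha8, at 2.09 in all 4 groups and below the filter. Among the next measured genes, added after the first neighbours were found to be mostly unmeasured, Kdm1a, a histone demethylase, differed by -0.13 in adults (limma adjusted p = 0.790) and -0.03 in neonates (adjusted p = 1.00). Luzp1 differed by -0.27 (adjusted p = 0.137) and -0.18 (adjusted p = 1.00), and Wnt4 was below the filter. Genes farther away are not described here.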

How the data were processed

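Total RNA of rat dorsal horn was hybridised to 24 arrays, per the labels' protocols. The deposited values are log2 expression per probe set, made by the authors with GCRMA per the submitters' processing notes (version not given in the sources used here). GCRMA corrects background by probe sequence and places dim probe sets near a common low value, so the size of a fold change from there is uncertain. The deposited values were used without further transformation.

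Of 15923 probe sets 57 controls were left out. Of the rest, 12783 had 1 gene symbol in the platform annotation, 312 had several and 2771 had none; 12748 were found in the rat gene table, and 0 symbols changed. Those with several symbols entered the test and are not named. A gene with several probe sets was represented by that with the highest mean.

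A model with a mean for each of the 4 groups was fitted in limma 3.58.1 (R 4.3.3, with the package data.table at version 1.17.8), with 20 residual degrees of freedom and 3.81 prior degrees of freedom. Tested were 9638 probe sets above 3.84 log2, the 40th percentile of all values, on at least 6 arrays. Two-sided p-values were adjusted by Benjamini-Hochberg over these, with a threshold of 0.05, in 5 contrasts: injury in adults, injury in neonates, their difference, age in sham and age after SNI. The limma script was tested on simulated data. A lower bound on a fold change is the mean of the brighter group over the filter level. Promoter sequences are RefSeq's. Figures used matplotlib 3.10.9 in Python 3.11.15.

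The C1q genes and the 23 gene lists were chosen with earlier results of these data known. Genes named were the chains, up to 4 called members of each list with the smallest p, the classical pathway genes C1r, C1s, C2, C4a, C4b, C3 and Serping1, the 8 and 5 genes most like the chains over arrays and over deviations, the measured neighbours and index genes of glia. Other genes are named as examples or markers of their list.

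Same-numbered sham and SNI arrays deviated together (adult correlations 0.10 to 0.56, neonatal 0.24 to 0.61, each over 0.1). Replicate numbers were therefore used as pairs within an age, but only as an alternative. The main limma tests, the exact tests and the permutations did not use them. Their meaning is not labelled. Alternatives covered the filter, normalization, weights, variance trend, block and leaving out each array.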

Additional observations from a re-analysis of the deposited data

Results flagged for a closer look

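No C1q chain had an array far from the others of its group by Dixon's test at the 95% level, over 144 groups of 6 values in which chance alone gives about 1 in 20. Among genes named beside the chains, 8 groups had such an array. C3 was 6.47 on adult sham array 3, against 8.21 for the nearest array, the same array on which all 3 chains were lowest of their group. C3 was 10.43 on adult SNI array 5 (nearest 11.15). Tmem176a was 9.25 on neonate sham array 2 (nearest 8.65), the array on which all 3 chains were highest of their group. Cd53 was 6.11 on neonate sham array 4 (nearest 6.38) and Serping1 was 4.21 on neonate SNI array 6 (nearest 4.15). Msrb2 was 8.63 on neonate SNI array 5 (nearest 8.36). Cx3cr1 was 4.55 on adult sham array 6 (nearest 3.20) and P2ry12 was 8.30 on adult SNI array 3 (nearest 7.44).

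Limma's test of the difference between the adult and the neonatal injury effect, with Benjamini-Hochberg adjustment, called 8 genes named beside the chains and 0 of the 3 chains. For 4 of the 8 the values, 3.48 for Fcgr3a, 2.44 for Ly86, 2.42 for Fcgr2b and 2.14 for Irf8, were taken against arrays below the filter level. These genes passed the filter only through adult SNI, so their sizes are not measured differences and a neonatal change under the level could not be seen. The difference was 1.10 for Cd53 (adjusted p = 0.00649), 2.19 for Plac8 (0.0178), which was below the level on all neonate sham arrays, 0.99 for Ifi30 (0.0178) and 0.78 for Tmem176a (0.0309). The calls for Plac8 and Ifi30 were lost without adult SNI array 1, 2, 4 or 6 (adjusted p 0.0543 to 0.0656), and that for Tmem176a without any of 13 arrays in turn (0.0502 to 0.104). With the replicate block within age, Cd53 and Tmem176a missed the threshold (0.0852 and 0.0774).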

How the results depend on the processing

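The increases of the 3 chains in adults and in neonates, and their higher levels in adults after SNI, kept direction and call under every alternative run, replicate blocks included. Without one array at a time the adult increases ran from 2.52 to 2.75 for C1qa, 2.96 to 3.30 for C1qb and 3.46 to 3.74 for C1qc, and the neonatal ones from 1.77 to 2.06, 1.99 to 2.42 and 2.07 to 2.47. The age difference in the response was called for no chain (C1qc adjusted p 0.122 to 0.571). C1qb in sham, adult minus neonate, ran from 0.50 to 0.92. The cause was not tested for any change that follows.

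With the replicate block (sign flips of paired differences) the adult chain differences kept their values of 0.50, 0.99 and 0.49. Each had the smallest p that 6 pairs allow, 0.03125, and an adjusted p of 0.0625. The block within age gave 291 calls for adult injury and the block shared across ages 297, against 193; the shared block gave 2468 against 1573 for age in sham; it changed no other call on the chains. The 60th percentile filter, which tests fewer probe sets, gave 106 calls for adult injury and 6 against 22 for the difference between ages. Fitting only the groups compared, which has fewer arrays, gave 18 against 30 calls for neonatal injury. The Spearman ranking of deviations shared 0 of 5 genes. Adult Gfap gained a call with the block within age (limma adjusted p = 0.0460) and the shared block (0.0136). It also did with quantile normalization (0.0313) and the variance trend (0.0374). With the shared block neonatal Ctsh (0.0136), Ifi30 (0.0433) and Fcgr2b (0.0245) gained a call, the last from values below the filter level.

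Leaving out single arrays gave 158 to 184 calls in adult injury, 23 to 31 in neonatal injury, 9 to 29 in the difference, 1249 to 1608 in age in sham and 1709 to 2138 in age after SNI. In adults C1qb minus C1qa ran from 0.44 to 0.61, C1qc minus C1qa from 0.91 to 1.08 and C1qc minus C1qb from 0.42 to 0.56. In neonates these ran from 0.06 to 0.35, 0.21 to 0.41 and -0.12 to 0.26; the last reversed to -0.12 without neonate sham array 5. Small uncalled values changed sign for Msrb2 in adults (-0.0068 without adult SNI array 1, up to 0.14) and Kdm1a in neonates (0.0076 without neonate sham array 4, down to -0.055). Among named genes, some increases lost their call. For Tyrobp and Plac8 in neonates the limma adjusted p was 0.456 each with low values set to the filter level. For P2ry12 in neonates it was 0.0522 with that setting, 0.172 with no filter and 0.0936 with only the groups compared. For Ctsz and Rnaset2 in neonates it was 0.0592 and 0.156 with only the groups compared. The adult increase of Cx3cr1 lost its call with low values set to the filter level (limma adjusted p = 0.104).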
